A study of Mus musculus with 72 samples.

Results

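The growth hormone and IGF axis was followed here as 10 genes, which are Ghr, Igf1, Igfals, Igfbp1, Igfbp2, Socs2, Cish, Hsd3b5, Slco1a1 and Elovl3. They were found on the mRNA arrays by the RefSeq transcript each probe is listed for, which gave 14 probes among 56605 non-control probes and 23787 named genes. Where a gene had several probes, the brightest over all 36 arrays stood for it. The genes were selected on knowledge of earlier results of these data, in which the liver dose response of Hsd3b5 and Slco1a1 was already visible. Their changes with dose are therefore given as a description, with levels and standard errors but no p value, and they support no further statement.

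Female C57BL/6 J mice aged 6 to 8 weeks received 1 X-ray exposure of the whole body at 1 of 5 doses between 1 and 12 Gy (the others being 2, 4 and 8 Gy), and controls at 0 Gy were sham-irradiated. The labels name no transgene or mutant allele. RNA of liver and of lung was taken 48 h later from 3 mice per dose and hybridised to 1-colour Agilent arrays, 18 for each tissue. Each mouse is called here by the number in its label, and the labels do not state that a liver and a lung with the same number came from 1 mouse. Levels are log2 normalized intensities, and levels of different probes are not compared with each other.

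Growth hormone from the pituitary binds its receptor on hepatocytes, and the kinase JAK2 then activates the transcription factor STAT5. STAT5 drives the gene of IGF-1, the hormone that carries much of the growth signal in blood, and genes of the SOCS family that shut the receptor down again. In rodents the pituitary releases growth hormone in pulses in males and more evenly in females, and liver genes that read this pattern are higher in 1 sex. Hsd3b5, a 3-ketosteroid reductase, and Slco1a1, an organic anion uptake transporter, are known as male-biased liver genes of this kind, and Elovl3 is a fatty acid elongase with a similar bias.

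Marker genes fitted the tissue in the labels and the female sex given above for the mice. All 15 hepatocyte genes looked up, Alb and Apoa1 among them, were well above background on every liver array, and all 8 lung epithelial genes, Sftpc and Scgb1a1 among them, on every lung array. On lung arrays 10 to 15 of the hepatocyte genes were also well above background, and on liver arrays 4 to 7 of the lung genes. The summed log2 level of the hepatocyte genes was 21.88 to 21.97 in liver against 15.02 to 17.26 in lung. That of the lung genes was 20.36 to 20.56 in lung against 11.28 to 12.74 in liver. Xist was well above background on 36 of 36 arrays and the Y-linked genes Ddx3y and Eif2s3y on 0, Uty on 2 and Kdm5d on 3. Between 46.1% and 54.0% of spots were well above background in liver and between 54.1% and 64.0% in lung, and no spot was saturated. The arrays lay on 5 slides. In liver the controls were on the first slide with the 1 Gy mice and 2 of the 2 Gy mice, and the other arrays on the slides numbered 2 and 3. In lung all 12 Gy arrays and 1 at 8 Gy were on the fifth slide, which was scanned on a second day and had 54.1% to 54.8% of spots well above background, against 59.2% to 64.0% on the other lung slides. Slide and the 12 Gy dose cannot be told apart in lung. B cell genes were lower in both tissues after irradiation. At 12 Gy 8 of 8 were past the thresholds in lung and 4 of 7 in liver, beside 7.32% and 2.06% of all probes. Of the erythroid genes, 3 in lung and 2 in liver were past them at 1 dose or more, all lower. Of the neutrophil genes, 1 in each tissue was, also lower. In bulk RNA, fewer cells of a type and less RNA per cell cannot be told apart.

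A probe counted as called past 2 thresholds, a log2 change of more than 1 in either direction and an adjusted p under 0.05, taken over all 38362 probes tested in liver or 43979 in lung. In liver, 2 of the 10 genes were called at 1 dose or more, Hsd3b5 and Slco1a1, both lower. By dose, 0 of 10 were called at 1 Gy, 1 at 2 Gy and 2 each at 4, 8 and 12 Gy. Among all probes tested in liver the called share was 0.0339% at 1 Gy, 0.245% at 2 Gy, 0.944% at 4 Gy, 2.21% at 8 Gy and 2.06% at 12 Gy. Since liver results chose the genes, nothing is read from their count beside these shares. At 1 Gy, limma gave 1 of the 10 genes an unadjusted p below 0.05, beside 2713 of all 38362 liver probes. Below, some dose groups are said to lie wholly above or below the controls. With so few mice this is a description only. The share of all probes that separate in this way is not given, so nothing is read from it.

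Hsd3b5 fell furthest of the 10. Although known as male-biased, it and Slco1a1 were well above background on all 18 liver arrays of these female mice. In the 3 control livers its log2 level was 12.92, 12.63 and 12.39. It was 10.82, 11.66 and 11.93 at 1 Gy, 9.18, 9.61 and 10.43 at 2 Gy, and 8.63, 8.25 and 8.53 at 4 Gy. At 8 Gy the 3 livers gave 7.98, 9.01 and 6.00, and at 12 Gy 8.41, 9.19 and 8.10. Every irradiated liver lay below every control, also at 1 Gy, where the gene was not called. The log2 change was -1.18 ± 0.57 (SE, n = 3 against 3) at 1 Gy, -2.91 at 2 Gy, -4.18 at 4 Gy, -4.98 at 8 Gy and -4.08 at 12 Gy, each with the same standard error. These are levels 2.26-fold, 7.49-fold, 18.1-fold, 31.6-fold and 16.9-fold below the controls. The steepest part of the response lay between 0 and 4 Gy, and the ranges at 4, 8 and 12 Gy overlap each other. A straight line over dose gave a log2 change of -3.86 ± 0.85 over 12 Gy, and 2.03% of all liver probes were called for such a trend. The call at 2 Gy was lost on leaving out any 1 of 12 mice, the 3 controls among them, with a log2 change between -3.25 and -2.63. The calls at 4, 8 and 12 Gy were kept without any 1 mouse. Hsd3b5 has near-identical family members, so that its probe may also read a relative.

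Slco1a1 was the other gene called lower. Its control levels were 13.16, 12.81 and 12.90. They were 12.20, 12.44 and 11.42 at 1 Gy, 10.97, 11.13 and 11.59 at 2 Gy, and 10.15, 9.72 and 10.36 at 4 Gy. At 8 Gy the levels were 10.19, 10.85 and 8.94, and at 12 Gy 11.12, 11.49 and 11.08. All 15 irradiated livers were below all 3 controls, and the 3 livers at 12 Gy were above all 6 at 4 and 8 Gy. The log2 change was -0.93 ± 0.38 (SE, n = 3 against 3) at 1 Gy, -1.72 at 2 Gy, -2.88 at 4 Gy, -2.96 at 8 Gy and -1.73 at 12 Gy, and the gene was called at the last 3 doses. The levels at 4, 8 and 12 Gy were 7.34-fold, 7.79-fold and 3.31-fold below the controls. The second Slco1a1 probe gave -2.98, -3.04 and -1.99 at these doses and was called at the same 3. The linear trend, -1.60 ± 0.63 over 12 Gy, was not called. Without control mouse 1 or 12 Gy mouse 26 the 12 Gy call was lost, and over all single mice left out the value stayed between -1.86 and -1.63.

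**Figure D1:**
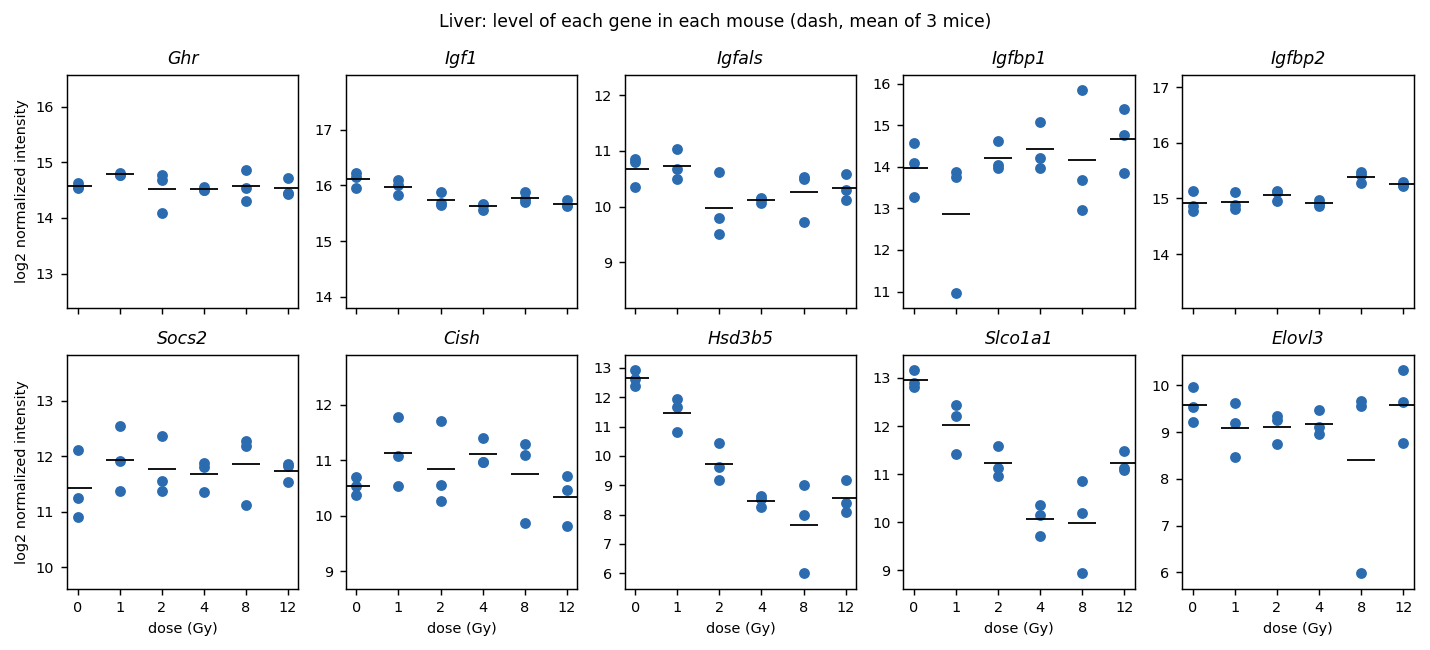
Log2 normalized intensity (vertical axis, one scale per panel) of each of the 10 genes in each of 18 livers, by dose in Gy (horizontal axis, categories). Points are mice and dashes the mean of 3 mice; Hsd3b5 and Slco1a1 step down from 0 to 4 Gy with no overlap with the controls, the other panels mostly overlap, and 1 liver at 8 Gy stands low for Elovl3 at 5.98.

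Slide and dose are partly tied in liver. On the first slide alone, 2 of the 2 Gy livers lay at a mean of 9.40 for Hsd3b5 against 12.65 in the controls on that slide, a log2 difference of -3.25, and for Slco1a1 the difference was -1.91. On the second slide, the 3 livers at 4 Gy lay -1.96 from the 1 liver at 2 Gy for Hsd3b5. With slide as a fixed term both genes were still called at 8 Gy, at -6.01 ± 1.05 and -3.50 ± 0.71, while Hsd3b5 at 2, 4 and 12 Gy and Slco1a1 at 4 and 12 Gy were no longer called. Their log2 changes in that fit were -3.25, -5.21 and -5.26 for Hsd3b5 and -3.41 and -2.37 for Slco1a1. Only 1 liver, that of 2 Gy mouse 23, ties the second slide to the dose groups of the first. The values at 4, 8 and 12 Gy in that fit rest on this liver, so the fit cannot separate slide from dose. Of the 15 hepatocyte genes, 0 were called at any liver dose, with log2 changes from -0.71 to 0.75. Of their 75 gene and dose pairs, limma gave 17 an unadjusted p below 0.05, beside 2713 (1 Gy) to 9668 (8 Gy) of all 38362 liver probes per dose. The summed level of the 15 stayed between 21.88 and 21.97 on the log2 scale. Quantile normalization leaves a sum of such bright probes little room to change, so nothing is read from it.

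The promoter windows of these genes were read because 2 of them fell together. RefSeq windows on GRCm38.p6 were given for 8 of the 10 genes, 12 windows in all, each from 250 bases before the annotated start to 50 after. Socs2 and Elovl3 were not among them. The motif searched was TTCNNNGAA, the core that STAT5 dimers bind, which reads the same on both strands. It occurred in 3 of the 12 windows, in 2 genes, Cish and Igfals, against 8.30% of all 32851 windows of this length. The windows of Hsd3b5 and Slco1a1 are shown because these genes carried the liver change, and those of Cish and Igfals because they hold the motif. Each is printed on the gene's own strand to 30 bases past the start, with the motif in capitals.
Hsd3b5, chr3:98645505-98645784, minus strand: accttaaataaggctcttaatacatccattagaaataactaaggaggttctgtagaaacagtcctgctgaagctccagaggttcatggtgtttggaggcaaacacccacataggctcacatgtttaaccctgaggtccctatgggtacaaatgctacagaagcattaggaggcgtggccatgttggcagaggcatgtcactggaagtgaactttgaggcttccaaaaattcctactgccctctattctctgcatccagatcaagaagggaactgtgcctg
Slco1a1, chr6:141946933-141947212, minus strand: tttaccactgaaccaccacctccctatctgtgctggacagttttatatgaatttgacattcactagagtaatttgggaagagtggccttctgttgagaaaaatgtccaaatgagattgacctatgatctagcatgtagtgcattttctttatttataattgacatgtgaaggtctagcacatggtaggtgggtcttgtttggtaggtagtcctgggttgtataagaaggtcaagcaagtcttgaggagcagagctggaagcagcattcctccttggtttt
Cish, chr9:107296409-107296688, plus strand: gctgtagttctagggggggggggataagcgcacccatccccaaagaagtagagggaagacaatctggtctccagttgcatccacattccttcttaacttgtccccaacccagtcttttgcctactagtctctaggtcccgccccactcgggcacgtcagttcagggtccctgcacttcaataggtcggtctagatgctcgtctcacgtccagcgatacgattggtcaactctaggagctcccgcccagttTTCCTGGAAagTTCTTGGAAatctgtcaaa
Igfals, chr17:24877981-24878260, plus strand: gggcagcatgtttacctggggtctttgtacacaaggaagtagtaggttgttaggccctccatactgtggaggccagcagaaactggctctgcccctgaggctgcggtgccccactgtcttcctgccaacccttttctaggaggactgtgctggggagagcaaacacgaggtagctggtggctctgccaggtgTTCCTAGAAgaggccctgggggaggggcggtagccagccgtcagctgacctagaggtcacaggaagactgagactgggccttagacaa
Cish holds the motif 2 times, at positions 0 and 11 from the annotated start. Igfals holds it at -58 in the window shown and at -236 in another. No match in a window says only that these letters are not in it, and none of these matches is a measured binding site.

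The receptor and the feedback genes were not called in liver. Ghr encodes the growth hormone receptor. Its control levels were 14.55, 14.54 and 14.62, and over the 15 irradiated livers they ran from 14.09 to 14.87. Every liver at 1 Gy was above every control on this probe. Log2 changes lay between -0.05 and 0.21, each ± 0.17, and the other 2 Ghr probes gave trends of -0.09 and -0.18 over 12 Gy against -0.10. Socs2 and Cish are feedback inhibitors that STAT5 induces. Socs2 was 10.90, 11.24 and 12.12 in the controls and 11.13 to 12.54 in irradiated livers, with log2 changes of 0.26 to 0.52, each ± 0.38. Cish was 10.37, 10.54 and 10.69 in the controls. At 4 Gy it was 11.40, 10.96 and 10.97, all above the controls, a log2 change of 0.58 ± 0.42, and at 12 Gy it was 10.47, 10.72 and 9.81, a change of -0.20. For both, irradiated and control livers overlapped at 8 and 12 Gy.

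Igf1 encodes the circulating growth factor itself. The controls were at 15.96, 16.23 and 16.15, and the levels at 4 Gy were 15.67, 15.56 and 15.64. At 12 Gy they were 15.74, 15.64 and 15.63. From 2 Gy upward every irradiated liver was below every control, but the log2 changes were small, -0.38, -0.49, -0.33 and -0.44 at 2, 4, 8 and 12 Gy, each ± 0.11. They met the adjusted p threshold, without the fold threshold, at 4 and 12 Gy, where 3.31% and 7.02% of all liver probes did so. Igfals, the acid labile subunit that holds IGF-1 in its long-lived blood complex, was 10.36, 10.85 and 10.80 in the controls. At 4 Gy it was 10.13, 10.07 and 10.15, all below the controls, a log2 change of -0.55 ± 0.27, and the change was -0.34 at 12 Gy.

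The binding proteins differed from each other. Igfbp2, one of the main carriers of IGFs in blood, was 14.86, 14.78 and 15.14 in the controls, 15.43, 15.27 and 15.48 at 8 Gy and 15.22, 15.24 and 15.30 at 12 Gy. All livers at those 2 doses were above all controls, by a log2 change of 0.47 ± 0.12 and 0.32. The 8 Gy value met the adjusted p threshold alone, as 9.90% of all liver probes did. Igfbp1, which insulin represses and fasting and stress induce, varied widely within dose groups, with an SD of 1.64 at 1 Gy against 0.36 at 2 Gy. Its controls were 13.27, 14.08 and 14.56, and 1 mouse at 1 Gy was at 10.97 while the other 2 were at 13.76 and 13.87. At 8 Gy the livers were at 12.97, 13.67 and 15.85, and at 12 Gy at 13.86, 14.76 and 15.39. Groups overlapped at every dose, and the log2 change at 12 Gy was 0.70 ± 0.77.

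Elovl3 was 9.53, 9.22 and 9.97 in the control livers and 8.77, 9.64 and 10.32 at 12 Gy, a log2 change of 0.01 ± 0.73. At 1 Gy it was 9.63, 8.46 and 9.19, and irradiated and control livers overlapped at every dose. At 8 Gy 2 livers were at 9.55 and 9.67 and that of mouse 25 at 5.98. The same liver was the lowest of its 3 for Hsd3b5, Slco1a1, Socs2 (11.13), Cish (9.87), Igfals (9.73) and Ghr (14.31) and the highest for Igfbp1 (15.85). Without it the log2 change at 8 Gy was -4.15 for Hsd3b5 and -2.43 for Slco1a1, both still called.

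Across the 18 liver arrays Hsd3b5 and Slco1a1 had a Pearson correlation of 0.923, and of 0.855 over the 15 irradiated livers, which share dose and slide. The 3 genes with the pattern most like Hsd3b5 were Prok1 (0.958), Nudt7 (0.948) and Acsm2 (0.946). Those most like Slco1a1 were Hsd3b5, Egfr (0.922) and Prok1 (0.912). These are descriptions over 18 arrays that share the dose series.

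Other liver genes known for a sex bias were taken as a male-biased and a female-biased list. Of 13 male-biased genes tested, 2 were called at 1 dose or more, both lower, and of 15 female-biased genes, 6 were called, all higher. By dose, 2, 1 and 1 male-biased and 3, 5 and 5 female-biased genes were called at 4, 8 and 12 Gy, where 0.944%, 2.21% and 2.06% of all liver probes were. Both lists were drawn up with earlier results known, so these counts and the p values of their genes are not independent evidence. Nudt7, a coenzyme A hydrolase of peroxisomes, fell from 16.20 to 16.42 in the controls to 14.24 to 14.62 at 12 Gy. Its log2 change was -1.40 ± 0.16 at 4 Gy, -1.63 at 8 Gy and -1.90 at 12 Gy, and it is also among the genes most correlated with Hsd3b5 given above. Bcl6, a repressor that competes with STAT5, was called only at 4 Gy among the doses (-1.40 ± 0.34, limma adjusted p = 0.0402), a call lost without any 1 of 7 mice. The major urinary protein genes Mup1, Mup3, Mup20 and Mup21, named after their values were seen, were not called, with log2 changes at 8 Gy from -0.61 for Mup3 to -0.22 for Mup21. The median log2 change of the male-biased list was -0.26 at 4 Gy, -0.27 at 8 Gy and -0.06 at 12 Gy, beside medians of 0.007, 0.005 and 0.009 over all probes.

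Among the female-biased genes, Acot3, an acyl-CoA thioesterase, had a log2 change of 2.23 ± 0.50 at 4 Gy, 1.83 at 8 Gy and 2.21 at 12 Gy (limma, adjusted p = 0.0137 at 12 Gy). Its controls ran from 9.99 to 12.38 and its 12 Gy livers from 12.67 to 13.66. Leaving out single mice moved the change between 1.68 and 2.87 at 4 Gy, 1.28 and 2.48 at 8 Gy and 1.66 and 2.86 at 12 Gy. The lowest values were those without control mouse 1 and the highest those without control mouse 21. Without control mouse 1 or 11 the calls at all 3 doses were lost, and over 28 alternative settings they were lost in 7, 8 and 5. Cux2, a homeobox repressor known for its female-specific expression in liver, rose from 6.52 to 7.76 in the controls to 9 to 9.37 at 12 Gy, a log2 change of 1.81 ± 0.34 (limma, adjusted p = 0.00467). Cyp39a1, an oxysterol hydroxylase, rose by 1.11 ± 0.18 at 12 Gy, and Trim24, a transcriptional cofactor, by 1.11 ± 0.16 at 8 Gy (limma, adjusted p = 0.00165 and 0.000817). Atp6v0d2, a proton pump subunit, rose by 1.04 ± 0.28 at 12 Gy (limma, adjusted p = 0.0403), a call lost without any 1 of 9 mice. A1bg, named after its values were seen, went the other way, with a trend of -2.77 ± 0.65 over 12 Gy (limma, adjusted p = 0.0101) and no dose called. The cytochrome P450 genes Cyp2b9 and Cyp3a44, also named after their values were seen, were not called, at 0.67 and -1.26 at 4 Gy. The median log2 change of the female-biased list was 0.67, 0.51 and 0.60 at 4, 8 and 12 Gy. With slide as a fixed term 0 of the 6 female-biased genes and 1 male-biased gene, Nudt7, were called. In that fit Acot3 was at 2.12 ± 1.07 and Cux2 at 2.02 ± 0.74 at 12 Gy.

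**Figure D2:**
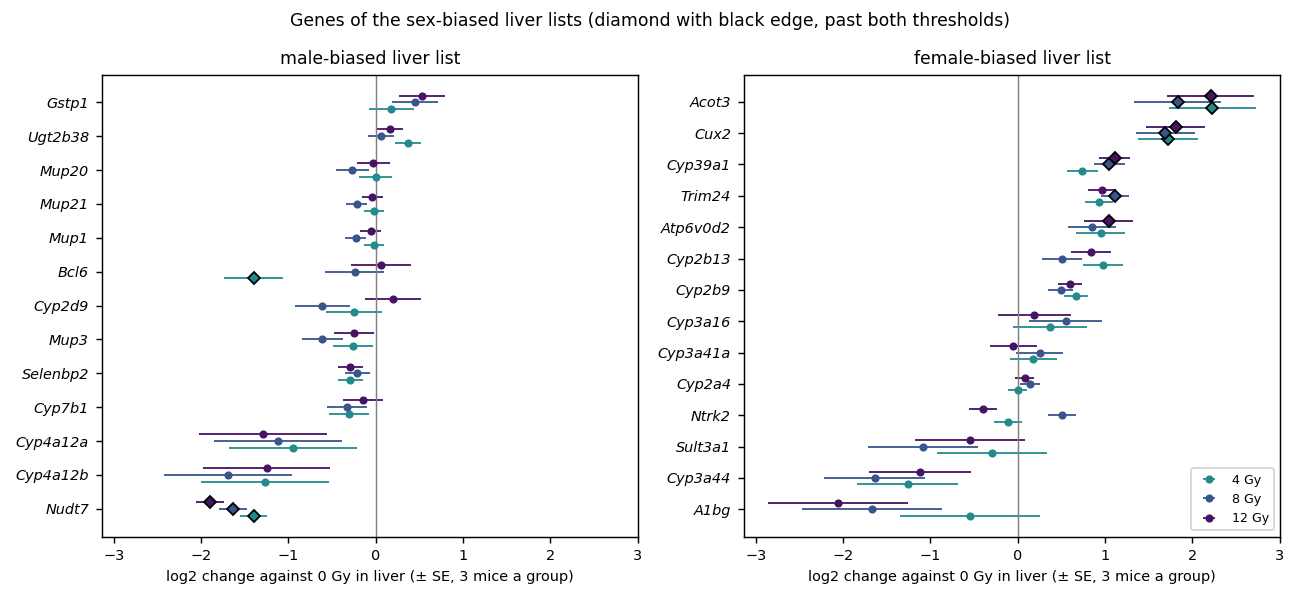
Log2 change against 0 Gy in liver (horizontal axis) of genes of the male-biased list (left) and of the female-biased list (right), one gene per row. Points are the limma estimates at 4, 8 and 12 Gy with bars of ± SE (3 mice a group), and diamonds with a black edge passed both thresholds; Nudt7 and Bcl6 are the diamonds on the left and on the right they run from Acot3 at 2.21 to Atp6v0d2 at 1.04 at 12 Gy.

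Of 30 other genes of growth hormone signalling and IGF binding tested in liver, such as Jak2, Stat5a, Stat5b, Igf1r and Igfbp3, 2 were called at 1 dose or more, 2 at 8 Gy and 1 at 12 Gy. That is 3 of 150 gene and dose pairs, beside 2.21% and 2.06% of all liver probes at these doses, and nothing is read from it. Irs2, an adaptor of the insulin and IGF-1 receptors, had a log2 change of -1.13 ± 0.28 at 8 Gy (limma, adjusted p = 0.0232). The Irs2 call was lost with slide as a fixed term and without any 1 of 4 mice. The median of the list stayed within 0.08 of 0 at every dose.

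In lung, 8 of the 10 genes could be tested. Hsd3b5 and Slco1a1 were not well above background on any of the 18 lung arrays, so that no change is given for them. At 12 Gy 1 of the 8 was called, Igfbp1, and 0 at 1, 2, 4 and 8 Gy, where limma gave 0, 0, 3 and 1 genes an unadjusted p below 0.05. Over all 43979 lung probes, limma gave 2427, 3369, 6119 and 7204 an unadjusted p below 0.05 at these doses. The called share of all lung probes was 0.0227% at 1 Gy, 0.443% at 2 Gy, 1.46% at 4 Gy, 2.52% at 8 Gy and 7.32% at 12 Gy. Nothing is read from the count of 1 beside it.

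**Figure D3:**
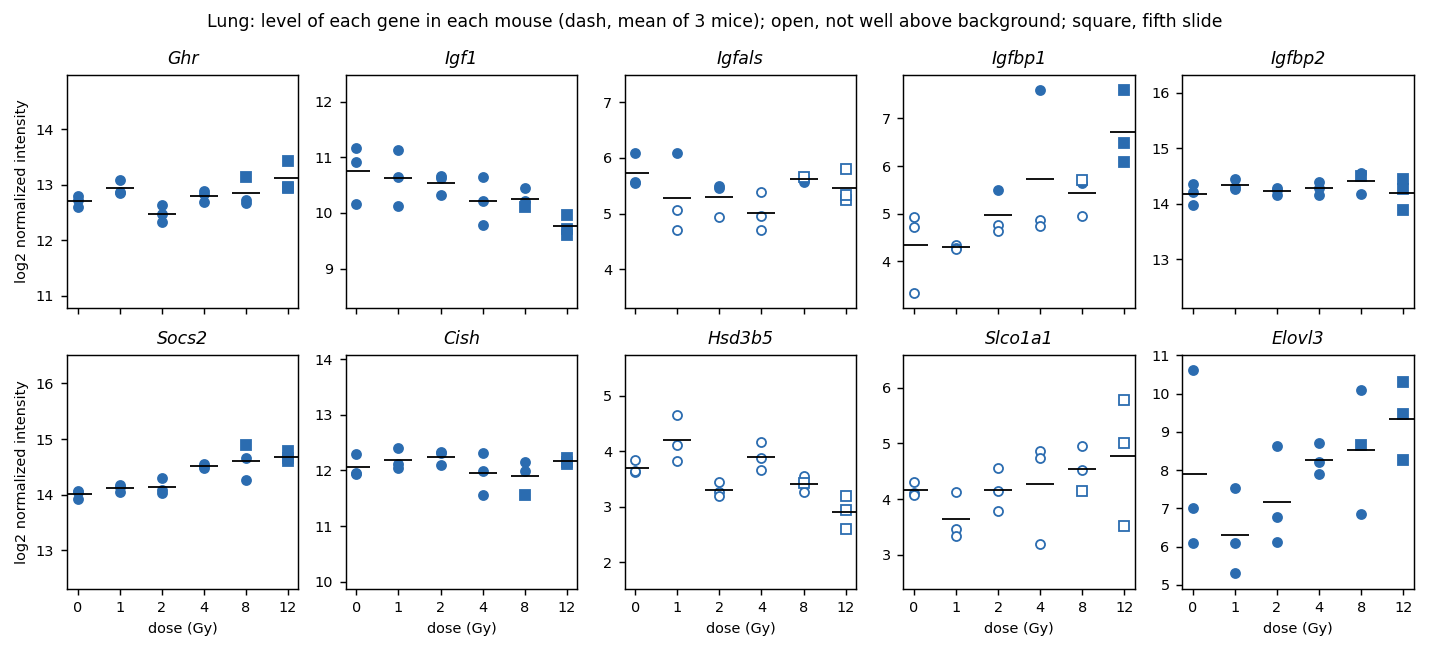
Log2 normalized intensity (vertical axis, one scale per panel) of each of the 10 genes in each of 18 lungs, by dose in Gy (horizontal axis, categories). Filled points were well above background and open ones were not, squares lay on the fifth slide and dashes are means of 3 mice; Hsd3b5 and Slco1a1 are open throughout and Igfbp1 is filled on 6 arrays, all 3 at 12 Gy among them.

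Igfbp1 lay near background in the control lungs, at 3.34, 4.94 and 4.72, with 0 of 3 well above background. The 12 Gy lungs were at 6.49, 7.59 and 6.08, all 3 well above background and above every control. That is at least 4.07-fold higher at 12 Gy, and the fitted log2 change was 2.38 ± 0.63. For this limit each control counted at the lowest level well above background on its array, or at its own level where that was higher. A single lung at 4 Gy, that of mouse 24, reached 7.60 while the other 2 were at 4.86 and 4.74. The dose trend was 2.19 ± 0.51 and was called, beside 7.05% of all lung probes. Igfbp1 was well above background on 6 of 18 lung arrays, and on no lung at 0 or 1 Gy. It thus entered the test through irradiated lungs alone, and its slope runs largely through background values. The 12 Gy call was lost without control mouse 1 or 12 Gy mouse 16, and with slide as a random block (2.32 ± 0.86). The lung array of 12 Gy mouse 16 had 1578 outlier spots, against 110 to 600 on the other lung arrays. Without the 4 arrays of the fifth slide the trend was 1.94 ± 1.00 and was not called.

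The median level of the hepatocyte genes varied along with Igfbp1 across the lungs. The 3 genes most like it over 18 lung arrays, chosen after its values were seen, were Fabp2 (0.939), Ass1 (0.934) and Fgl1 (0.934). The median log2 level of the 15 hepatocyte genes was 7.64 to 9.02 in control lungs, 9.15 to 10.56 at 12 Gy and 13.12 in the lung of 4 Gy mouse 24. Its correlation with Igfbp1 was 0.812 over 18 arrays. Igfbp1 was well above background on only 6 of these, so this value and the 3 likeness values rest largely on its background signal. Between 13 and 15 of the hepatocyte genes were well above background in control lungs, and the summed level of the list was 15.45 to 15.51 there against 15.05 to 16.20 at 12 Gy. Most of the control sum was Trf, at 14.93 to 15.28 in controls and 14.70 to 15.47 at 12 Gy, so the sum says little about the other genes. Not all genes moved with the median: Ttr was 7.73 to 11.38 in controls and 5.29 to 7.37 at 12 Gy. Tat, tyrosine aminotransferase, was the only 1 of the 15 called in lung, at 4, 8 and 12 Gy. Its log2 changes there were 2.42, 2.2 and 2.56, each ± 0.33 (limma, adjusted p = 0.000568, 0.000627 and 0.000119). The called share of all lung probes at these doses was 1.46%, 2.52% and 7.32%. The part of these genes in the Igfbp1 values was not tested.

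Elovl3 showed the widest spread of the genes in lung, from 5.30 to 10.61. The controls were at 7.01, 6.09 and 10.61 and the 12 Gy lungs at 10.30, 9.47 and 8.26, so that the groups overlapped. No single dose was called, and the trend of 2.26 ± 0.85 over 12 Gy, which was called, was lost without any 1 of 14 mice. With the processing alternatives included, it was lost in 22 of 28 settings. Elovl3 is also known as a gene of brown fat, and 3 such genes were looked up after its values were seen. Its correlation over the lung arrays was 0.925 with Cidea, 0.858 with Ucp1 and 0.886 with Cox8b, over 17, 17 and 18 arrays. Ucp1, the heat-producing uncoupling protein of brown fat, was at 10.88 to 14.73 in control lungs and at 8.31 to 15.11 over the 17 lungs with a value. It was well above background on 18 of 18 lung arrays and on 2 of 18 liver arrays. Within the controls, the lung with the highest Elovl3 (mouse 21) also had the highest Ucp1. The part of brown fat genes in the Elovl3 values was not tested.

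**Figure D4:**
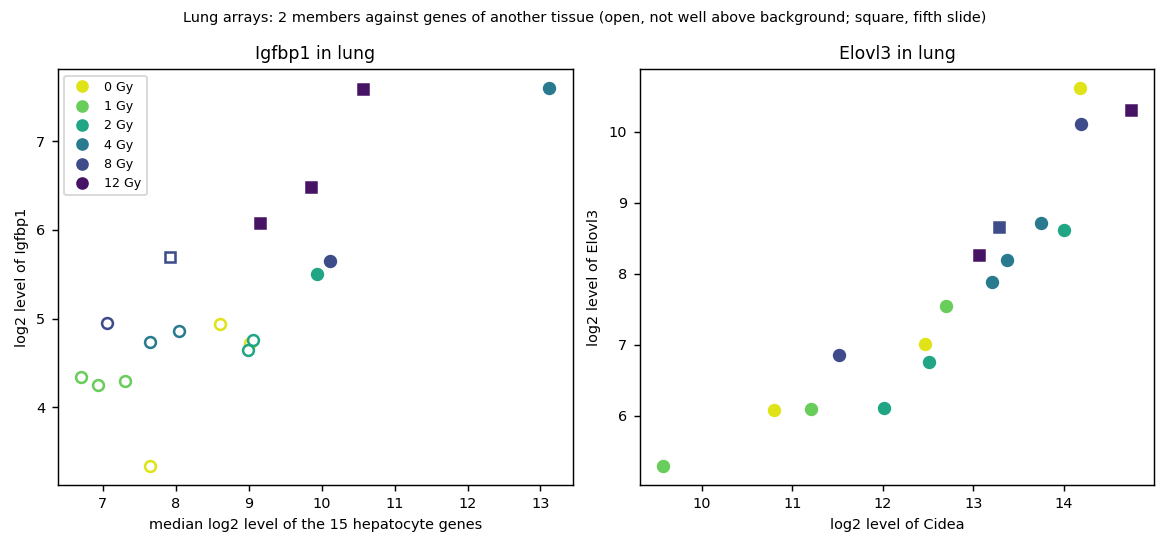
Log2 level of Igfbp1 against the median log2 level of the 15 hepatocyte genes in 18 lungs (left), and of Elovl3 against Cidea in the 17 lungs with a Cidea value (right). Each point is 1 lung coloured by dose, open where the member was not well above background and square on the fifth slide; both clouds rise from lower left to upper right, with correlations of 0.812 and 0.925.

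Socs2 lay above its control levels in lung from 4 Gy upward. The controls were at 14.05, 13.92 and 14.07. The lungs at 4 Gy were at 14.55, 14.47 and 14.52, those at 8 Gy at 14.66, 14.26 and 14.90, and those at 12 Gy at 14.60, 14.65 and 14.78. All 9 were above all controls. Log2 changes were 0.50, 0.59 and 0.66, each ± 0.15, and the second Socs2 probe gave 0.37, 0.48 and 0.30. The first probe met the adjusted p threshold, without the fold threshold, at 8 and 12 Gy, where 4.25% and 21.3% of all lung probes did. Since 4 Gy and 2 of the 8 Gy lungs lay on the fourth slide with 2 Gy, the difference from 2 Gy within that slide can be given, and it was 0.38 and 0.33. On the fifth slide the 12 Gy lungs lay -0.22 from the 1 lung at 8 Gy.

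Igf1 was lower in every lung at 12 Gy than in every control. The control lungs were at 10.17, 10.92 and 11.17 and the 12 Gy lungs at 9.96, 9.72 and 9.61. The log2 change was -0.54, -0.50 and -0.99 at 4, 8 and 12 Gy, each ± 0.28, and the trend was -0.89 ± 0.22. It met the adjusted p threshold alone at 12 Gy. On the fourth slide the 4 Gy lungs lay -0.33 from those at 2 Gy, and on the fifth slide the 12 Gy lungs lay -0.34 from the 1 lung at 8 Gy. Ghr was 12.59, 12.73 and 12.80 in the controls and 12.96, 13.43 and 12.94 at 12 Gy, a log2 change of 0.41 ± 0.17 on the first probe, while the other 2 probes gave -0.13 and -0.05. Cish stayed within 0.18 of its control mean at every dose, and Igfbp2 within 0.23. Igfals was well above background on 8 of 18 lung arrays, the 3 controls among them and 0 of 6 at 4 and 12 Gy. Its control lungs were at 5.56, 6.09 and 5.55 and those at 12 Gy at 5.24, 5.33 and 5.80, so that the groups overlapped.

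Of 31 other genes of the axis tested in lung, 3 were called at 1 dose or more, 2 at 8 Gy and 1 at 12 Gy. That is 3 of 155 gene and dose pairs, beside 2.52% and 7.32% of all lung probes at these doses, and nothing is read from it. Socs1, an inhibitor of JAK kinases, had a log2 change of -1.01 ± 0.20 at 8 Gy (limma, adjusted p = 0.00592). Ghrl, which encodes ghrelin, a releaser of growth hormone, had a change of 1.13 ± 0.19 at 12 Gy (limma, adjusted p = 0.00129). The Ghrl call was lost without 12 Gy mouse 16, whose array had 1578 outlier spots, and that of Socs1 without control mouse 21 or 8 Gy mouse 5.

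**Figure D5:**
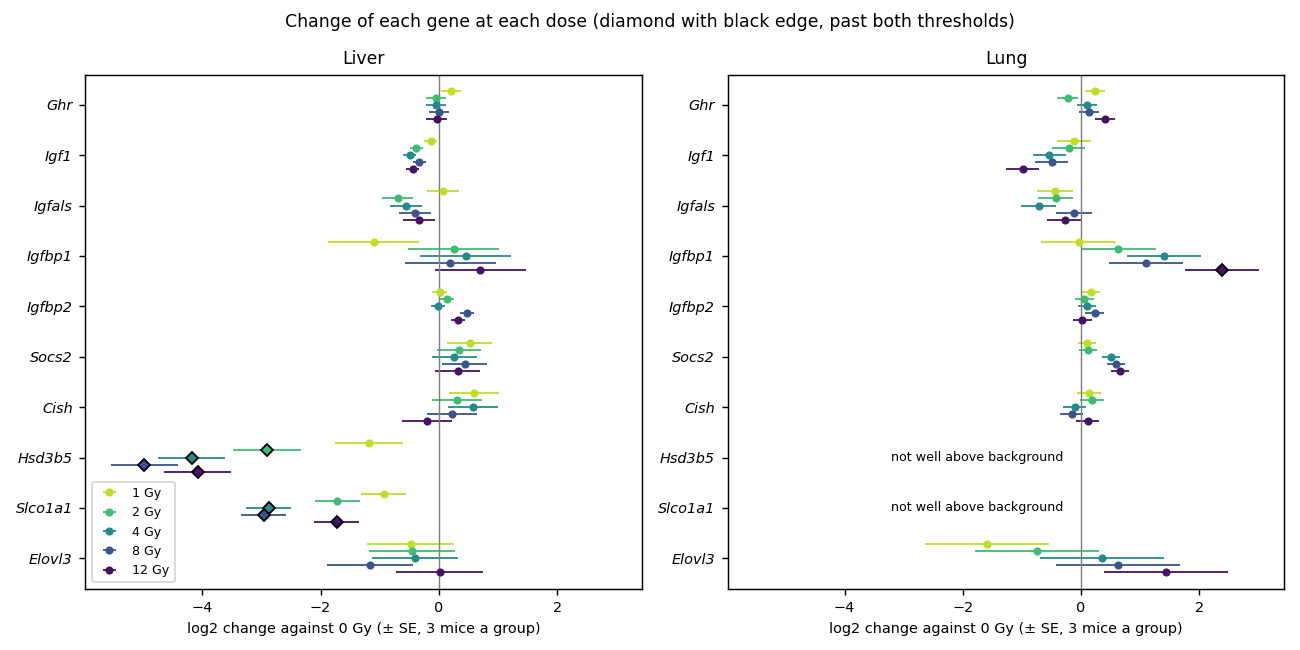
Log2 change against 0 Gy (horizontal axis) of each gene in liver (left) and lung (right), with bars of ± SE (3 mice a group) and one colour per dose. Diamonds with a black edge passed both thresholds; Hsd3b5 reaches -4.98 and Slco1a1 -2.96 in liver, and the diamond in lung is Igfbp1 at 12 Gy, at 2.38 by the fit.

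The unirradiated tissues were compared over 3 lungs and 3 livers at 0 Gy, after joint normalization of 36 arrays. All control livers lay on the first slide and all control lungs on the third, so tissue and slide cannot be told apart here. limma called 9 of 10, 8 higher in liver and Socs2 higher in lung, beside 35.5% of all 47376 probes tested. The count is not read against that share, since several of the genes were listed as liver genes. Hsd3b5 and Slco1a1 also passed the filter through liver arrays alone. Hsd3b5, Slco1a1 and Igfbp1 were also well above background in 0 of 3 control lungs. Igf1 was 64.7-fold higher in liver (log2 difference, lung minus liver, -6.02 ± 0.23, adjusted p = 1.02e-18) and Igfals 58.3-fold (-5.86 ± 0.26, adjusted p = 2.14e-17). Ghr was 5.01-fold higher in liver (-2.33 ± 0.19), Igfbp2 2.13-fold (-1.09 ± 0.15) and Elovl3 7.07-fold (-2.82 ± 0.92), the last with control lungs from 5.68 to 10.14. For the genes near background in control lung only a limit holds: Igfbp1 was at least 791-fold, Slco1a1 at least 496-fold and Hsd3b5 at least 413-fold higher in liver. Socs2 was 3.99-fold higher in lung (2.00 ± 0.26, adjusted p = 2.04e-07). Cish differed by 0.57 ± 0.31 (limma, adjusted p = 0.13), which does not show equal levels. The call of Igfbp2 was lost without mouse 21, and that of Elovl3 without mouse 1 or 11.

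Dose trends were also set against each other between the tissues, with all 36 arrays in 1 fit. The trend of 7.24% of all probes differed past both thresholds. For Hsd3b5 and Slco1a1 the comparison is void, since the lung values are background and the liver trend, -3.42 and -1.38 in this joint fit, was among the results that chose them. The lung minus liver difference of trends did not pass for the other 8 and was 0.56 ± 0.29 for Socs2, -0.67 ± 0.26 for Igf1, 0.53 ± 0.23 for Ghr and 2.31 ± 1.03 for Elovl3 over 12 Gy.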

How the data were processed

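Liver and lung RNA of irradiated mice was measured on 1-colour Agilent arrays. The deposited intensity values are the median pixel values per spot, with a matching local background value, that the authors' scanner software (Agilent Feature Extraction 11.5.1.1) wrote, with no normalization between arrays. The deposited series value table holds linear intensities, and its scaling is not given in the sources used here. Its array medians lay between -4.18 and -3.64 on a log2 scale. The deposited columns of flags, which have no unit (other), mark outlier spots and spots well above background.

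Background correction used normexp (offset 0), and values were quantile-normalized within a tissue, put on a log2 scale and averaged over the spots of a probe, without outlier spots. Probes well above background (at least 0.5 of spots) on at least 1 array were tested with limma 3.58.1 (R 4.3.3, statmod 1.5.0) in a model of 6 doses, each against 0 Gy. The dose trend is a slope times 12 Gy. Benjamini-Hochberg adjustment ran over all probes of a comparison. The fit was tested on simulated data. RefSeq named 34566 probes, and 9009 probes listed for Ensembl transcripts were not named here. Each array held RNA of 1 mouse, and 3 mice per dose limit the precision.

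The genes and lists were chosen with earlier results of these data known. Named are all 10 genes, from each list the called genes, up to 6, and the 3 genes most correlated with a called gene, among probes well above background on at least 9 arrays. The miRNA arrays were not used. Some called list genes are counted but not reported here by name. The alternatives tried were the offset, the software's processed signal, the series table, filters, outlier spots, slide, joint normalization, averaged probes, mouse number as a block, and each mouse left out.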

Additional observations from a re-analysis of the deposited data

Results flagged for a closer look

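The joint fit of 36 arrays gave Hsd3b5 and Slco1a1 a difference of dose trends (lung minus liver) of 2.57 and 2.15 on the log2 scale over 12 Gy, past both thresholds. It is no comparison of 2 measured trends. Both genes were well above background on 0 of 18 lung arrays and entered the fit through liver alone, so that the values restate the liver response that chose the genes. With slide as a random block neither value was called, at 2.45 ± 0.91 and 1.98 ± 0.75.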

How the results depend on the processing

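Hsd3b5 and Slco1a1 were the 2 genes called in liver under every alternative and without any 1 mouse (range 2 to 2), though not at every dose. Liver results chose these 2 genes, so nothing is read from their staying called. Between unirradiated lung and liver, 9 genes differed under every alternative (8 to 9 without 1 mouse). In lung 1 gene was called. That count was 2 with the processed signal, 2 with outlier spots kept, 2 with both tissues together, 0 with slide as a random block, 0 when probes had to be well above background on at least 9 arrays, and 0 without the 4 arrays on the fifth slide, a choice made after seeing the data (0 to 2 without 1 mouse). Genes of the signalling and IGF list called in liver, 2 as reported, came to 4 with the processed signal, 4 with the series value table, 1 with slide as a random block and 0 with slide as a fixed term (0 to 2 without 1 mouse). In lung they were 3 as reported, 1 with slide as a random block and 1 without the fifth slide (1 to 3 without 1 mouse). Male-biased genes called in liver, 2 as reported, were 1 with slide as a random block, 1 with slide as a fixed term and 1 with no filter on dim probes (1 to 3 without 1 mouse). Female-biased genes, 6 as reported, were 0 with slide as a fixed term and 3 with both tissues together (4 to 6 without 1 mouse). Dose trends called different between tissues, 2 and both of genes with no lung measurement, were 0 with slide as a random block (1 to 2 without 1 mouse). Slide as a fixed term could not be fitted in lung. The cause of these differences was not tested. With the mouse number as a replicate block across liver and lung, 9 genes still differed at 0 Gy and 2 trends differed. For same-numbered samples the correlation of their deviations over 18 pairs lay between -0.0651 and 0.0965. Of the 18 samples, 7 correlated best with their own number. Such values cannot decide whether a liver and a lung with the same number came from 1 mouse. With 3 mice per dose and signal near background, small changes of Igfbp1 and Igfals in lung are limited by the arrays.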
